A study of Mus musculus with 4 samples.

Results

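Fatty acids are the main fuel of the beating heart and an important one of skeletal muscle, and the 36 genes described here encode the route that the fuel takes. Lipoprotein lipase frees fatty acids in the capillaries, membrane and cytosolic binding proteins bring them into the muscle cell, acyl-CoA synthetases activate them and the carnitine shuttle carries them into mitochondria. There the beta-oxidation enzymes shorten them step by step, with electrons passed on through the electron transfer flavoprotein, while lipid droplets hold a reserve that lipases release. The genes were chosen by name for these roles, as 38 names of which 2 are older aliases. No rule on their values was used, but earlier results of these data were known.

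Of these 36 genes, 30 were listed in the heart table and 29 in the table for tibialis anterior (TA), a fast-twitch muscle of the lower hindlimb. All 29 of the latter were in both tables, which held 10791 and 10352 genes, with 9906 in common. Acot2 was listed for heart and not for TA. The other 6 genes, Cpt1b, Acacb, Acadm, Hadhb, Acot1 and Pnpla2, are not analysed here, so nothing is said of the muscle form of the outer carnitine palmitoyltransferase or of the adipose triglyceride lipase.

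The animals were male mice of the inbred strain C57BL/6J, 10 weeks old and untreated as far as the labels say. Heart and TA each gave 1 library of ribosome-protected fragments (RPF), the footprints left on mRNA by ribosomes after nuclease digestion, and 1 library of total RNA depleted of ribosomal RNA, both taken from crude lysate of the tissue. There were 4 libraries, no replicates and no statement of how many mice stood behind each, so no p-value is given, and the 95% intervals below cover counting error only. Each value is the RPM, the reads scaled to a fixed total of coding reads, on 1 transcript model per gene. Steps between the low values showed that 1 RPM was worth 9.34 reads in heart RNA, 16.1 in TA RNA, 28.2 in heart RPF and 28.6 in TA RPF. The RPF values were rounded more coarsely relative to a read, so their read numbers are less sure. The lowest number of coding reads behind a member was 88, for Slc22a5 in TA RPF.

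The tissues matched their labels. All 10 heart markers were listed in heart, where their RNA summed to 110871 RPM, against 248 RPM over the 7 listed in TA, and Myh6, Nppa and Ryr2 were not listed there. The 10 markers of fast skeletal fibres summed to 220159 RPM of RNA in TA and 384 RPM over the 7 listed in heart. Slow-fibre markers summed to 29938 RPM in heart and 90.7 RPM in TA, with Myh7 listed in neither. Of that heart sum 25167 RPM came from 1 gene, and Myl3 is among the heart markers too. The slow-fibre sum therefore does not set slow fibres apart from heart muscle.

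Nuclear receptors of the PPAR and ERR families are known to switch many of these genes on in muscle, and they share the half-site AGGTCA. The letters AGGTCA were looked for on both strands of RefSeq windows of 300 bases, 250 before and 50 after the annotated start, in build GRCm38.p6, a different build from the mm9 that the submitters' notes name. Windows were found for 24 of the 30 members. The half-site stood in 6 of these 24 (25.0%), beside 14.7% of 8186 listed genes and 18.1% of all 27025 genes with a window. The windows below show matches with 12 bases on either side, 5′ to 3′ along the gene, with the match in capitals (TGACCT is the same half-site read on the other strand). Matches whose printed bases would pass the annotated start were left out, so the lines need not hold every match of these 6 genes. The windows are shown because the 6 genes span uptake, the carnitine shuttle, oxidation, droplets and uncoupling. A link between the half-site and the RNA of these genes was not tested.
Cd36, chr5:17836107-17836136, minus strand: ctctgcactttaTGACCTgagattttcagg
Cpt1a, chr19:3323195-3323224, plus strand: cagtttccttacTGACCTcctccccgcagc
Acadvl, chr11:70015498-70015527, minus strand: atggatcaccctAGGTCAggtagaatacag
Echs1, chr7:140116487-140116516, minus strand: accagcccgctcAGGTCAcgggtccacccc
Plin5, chr17:56117701-56117730, minus strand: agtcctagtctgAGGTCAgccatggtgact
Ucp3, chr7:100472830-100472859, plus strand: ttaaagagccccAGGTCAcggaagctaaac
Ucp3, chr7:100472935-100472964, plus strand: gaattaggtttcAGGTCAgctggtgcacag

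The first bases of the printed matches lay between 44 and 228 bases before the start. Matches too near the start, or after it, were not printed. The full PPAR-type repeat AGGTCANAGGTCA was in none of the 24 windows, as in all but 0.0481% of all genes. The extended ERR-type letters TCAAGGTCA, which contain the half-site, were in none of the 24 either, against 0.466% of all genes. A match is a description of letters in this window only.

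The first comparison was the RNA of each gene in heart and TA. Of 29 members, 26 had at least 2-fold more coding RNA in heart and none at least 2-fold less, where 35.0% of all 9843 genes tested were at least 2-fold higher and 3.88% at least 2-fold lower. The median member stood at a log2 ratio of 2.18 and the median of all genes at 0.70. Measured from the median gene, 24 members were at least 2-fold higher against 13.5% of all genes, and 1 member, Ucp3, was at least 2-fold lower against 10.4%. Together the 29 genes summed to 26212 RPM in heart and 4387 RPM in TA, a ratio of 5.98. In whole tissue, fewer cells of a type and less RNA per cell cannot be told apart.

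RPF followed the same pattern. Here 27 of 29 members were at least 2-fold higher in heart and none at least 2-fold lower, beside 30.1% and 5.06% of all genes, and the medians were 2.13 for members and 0.60 for all genes. Measured from the median gene, 23 members were at least 2-fold higher against 11.9% of all genes and 1, Ucp3, was lower against 12.0%. The 25 genes that passed 2-fold in RNA and RPF alike came from every role except malonyl-CoA control and the thioesterase and uncoupling group. For all genes the share that passed in both was not counted. All listed members held 3.64% of the coding RPF and 2.65% of the coding RNA in heart, but 0.622% and 0.440% in TA.

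**Figure D1:**
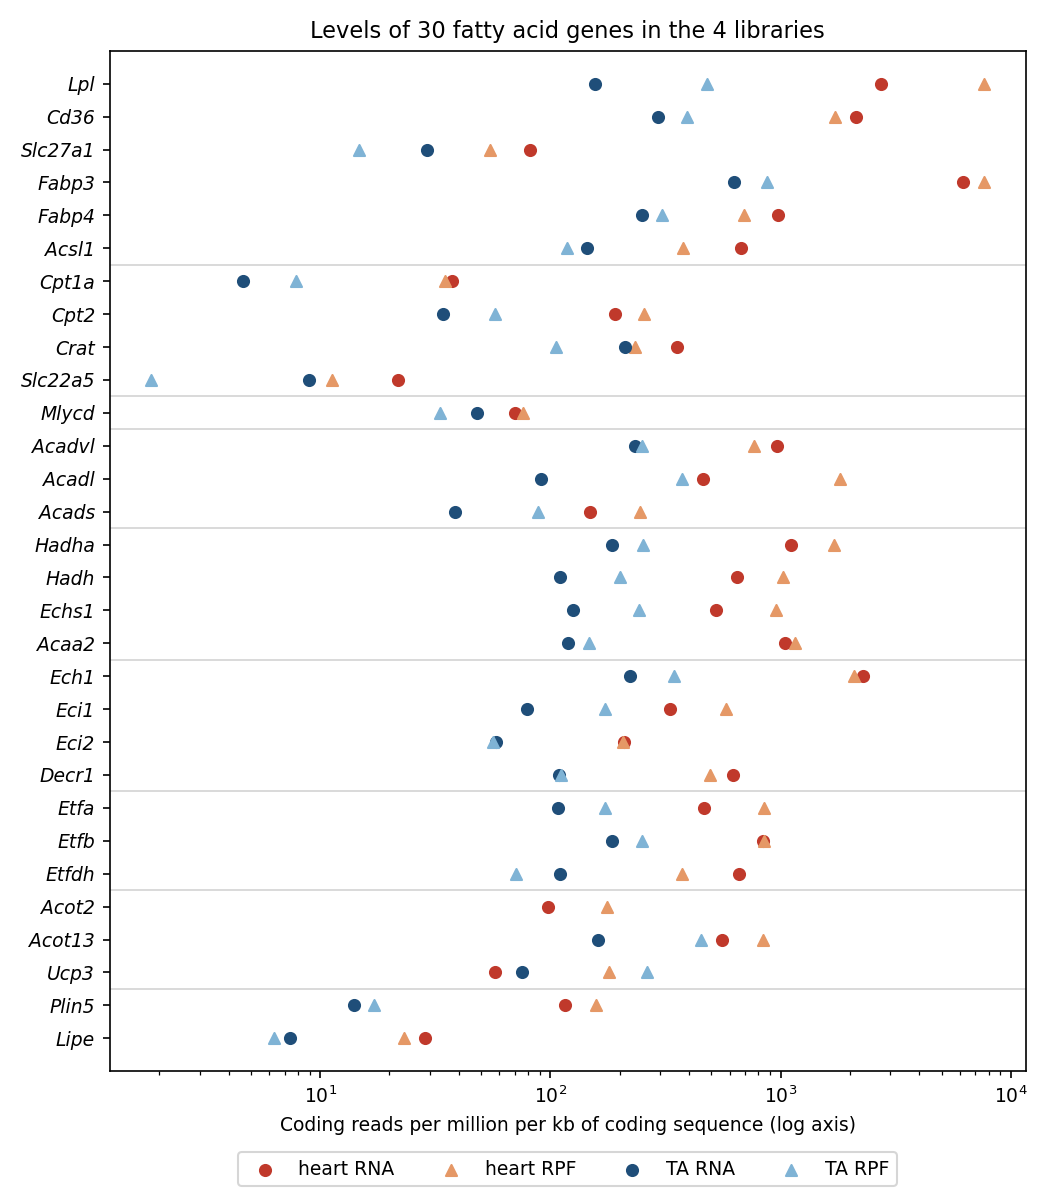
Coding RPM per kb of coding sequence (log axis) for the 30 listed genes in heart RNA, heart RPF, TA RNA and TA RPF, 1 library each, with lines between the roles. The heart points lie to the right of the TA points for 28 genes, Ucp3 is reversed, and Acot2 has heart points only.

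Uptake, binding and activation was the most abundant group. Lpl, the lipase that frees fatty acids from circulating triglyceride, had 3857 RPM of RNA in heart and 222 RPM in TA, and 10835 RPM of RPF in heart and 677 RPM in TA. Its RNA was 17.4-fold higher in heart (interval 16.8 to 18.0) and its RPF 16.0-fold (15.8 to 16.2), the widest tissue ratio of the 29 members in both kinds of library. It alone took 29.9% of the members' RPF in heart and 10.9% in TA.

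Fabp3, the cytosolic fatty acid carrier of muscle, had 2445 RPM of RNA in heart against 248 RPM in TA, and 3034 RPM of RPF against 347 RPM. Per kb of coding sequence it stood 12th of all listed genes in heart RNA and 13th in heart RPF, and it was the only member among the 100 highest in TA, in RNA and in RPF. The related adipocyte and endothelial carrier Fabp4 had 384 and 98.7 RPM of RNA, and 273 and 120.0 RPM of RPF, in heart and TA. Per kb, Fabp3 exceeded Fabp4 by 6.32-fold in heart RNA and 11.0-fold in heart RPF, and by 2.49-fold and 2.87-fold in TA. The muscle form was thus the more abundant of the pair in all 4 libraries, and the distance was greater in heart.

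Cd36, the membrane protein that takes up long-chain fatty acids, had 3001 RPM of RNA in heart and 416 RPM in TA, a 7.22-fold difference (7.03 to 7.42). Its RPF was 2426 and 556 RPM, a 4.36-fold difference (4.29 to 4.44). The tissue ratio was therefore smaller in RPF than in RNA, by more than the counting intervals. Acsl1, the main acyl-CoA synthetase of muscle, behaved alike, with 1402 and 301 RPM of RNA (4.66-fold) and 788 and 247 RPM of RPF (3.19-fold). The transport protein gene Slc27a1 was much less abundant, with 157 RPM of RNA in heart and 56.3 RPM in TA, and its RPF of 106 and 28.7 RPM gave a wider ratio (3.69-fold) than its RNA (2.78-fold).

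In the carnitine shuttle, the inner-membrane transferase Cpt2 had 374 RPM of RNA in heart and 67.3 RPM in TA (5.55-fold), with RPF of 501 and 113 RPM (4.42-fold). Cpt1a, the liver form of the outer-membrane transferase, had 86.9 and 10.7 RPM of RNA (8.07-fold, interval 6.89 to 9.65) and 80.6 and 18.2 RPM of RPF (4.41-fold, 4.02 to 4.87). Per kb, Cpt1a was the lowest member in TA RNA, at 4.61 RPM per kb.

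Crat, which transfers acetyl groups to carnitine, was the shuttle gene closest to equal between the muscles. It had 667 RPM of RNA in heart and 397 RPM in TA (1.68-fold), and 438 and 198 RPM of RPF (2.21-fold). Slc22a5, the plasma membrane carnitine transporter, was scarce in every library. Its RNA was 36.2 RPM in heart and 14.9 RPM in TA (2.42-fold, 2.05 to 2.88), while its RPF was 18.8 and 3.08 RPM (5.94-fold, 4.86 to 7.73). Per kb it was the lowest member in the remaining 3 libraries. Mlycd, which removes the shuttle inhibitor malonyl-CoA, had 103 and 70.7 RPM of RNA (1.46-fold) and 113 and 48.9 RPM of RPF (2.30-fold). The direction of its RNA difference depended on the scale: its log2 ratio was 0.55 on the library scale, -0.15 measured from the median gene and -0.04 without the 50 most abundant genes of each library.

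**Figure D2:**
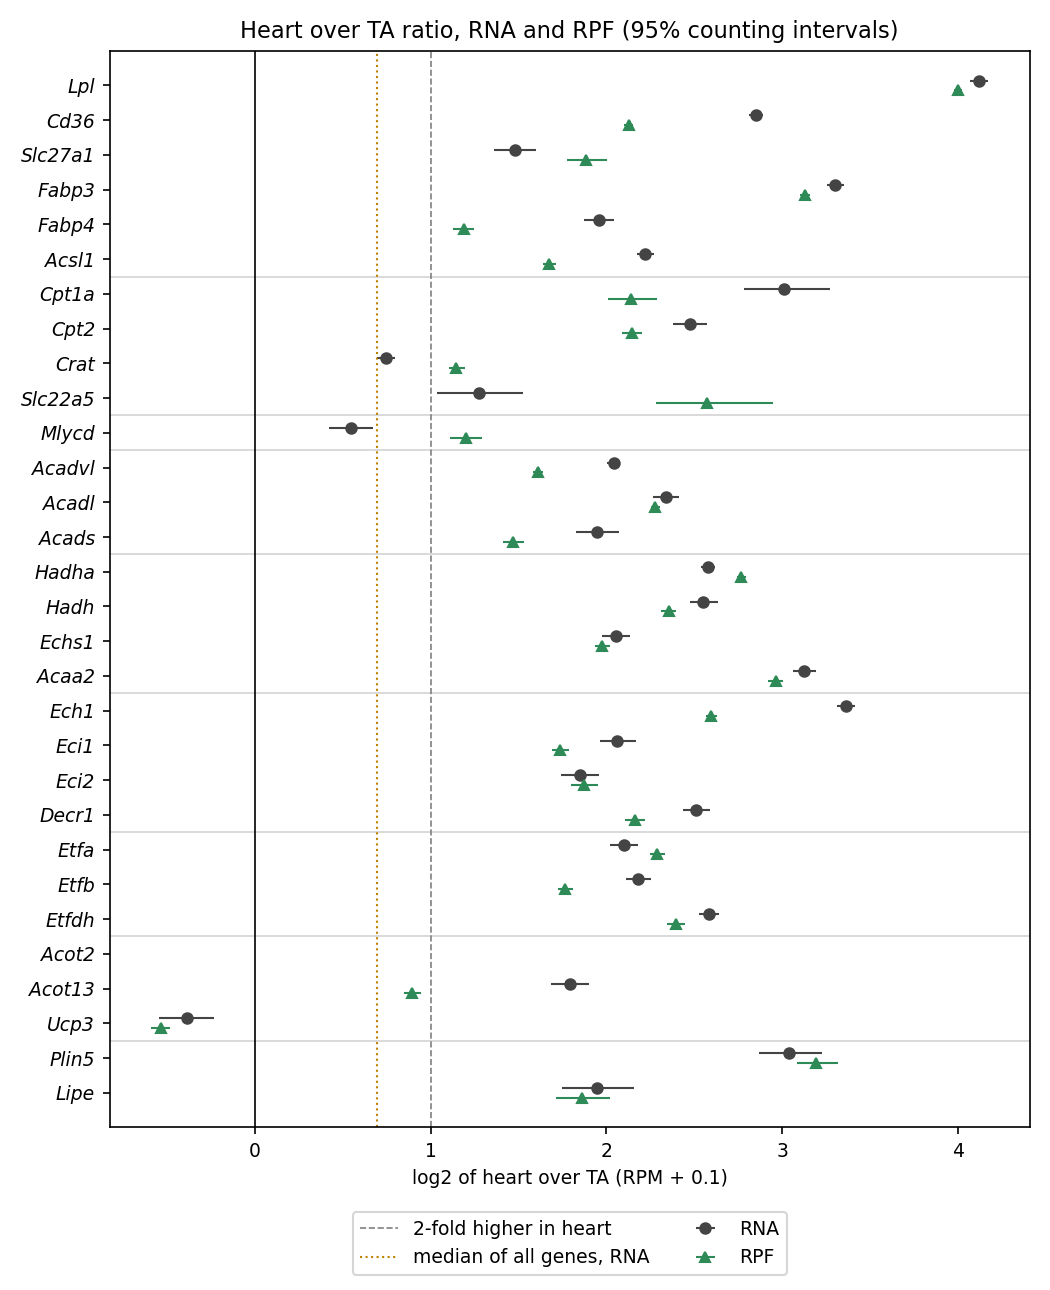
log2 of heart over TA (RPM plus 0.1) for coding RNA (circles) and RPF (triangles), with 95% counting intervals, for the 29 genes listed in both tissues. The dashed line marks 2-fold and the dotted line the median of all genes in RNA (0.70); Lpl is highest at 4.12 in RNA and Ucp3 alone lies below 0.

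The acyl-CoA dehydrogenases take the first step of beta-oxidation, each for its own chain length. The very-long-chain enzyme Acadvl had 1890.2 RPM of RNA in heart and 460 RPM in TA, and 1504 and 493 RPM of RPF. Long-chain Acadl had 594 and 117 RPM of RNA, but 2329 and 480 RPM of RPF. The short-chain enzyme Acads was the least abundant, with 184 and 47.7 RPM of RNA and 302 and 109 RPM of RPF. All 3 were at least 2-fold higher in heart, from 3.85-fold to 5.06-fold in RNA and from 2.77-fold to 4.85-fold in RPF. Acadvl therefore led Acadl per kb in RNA (962 and 461 RPM per kb in heart), and the order was turned in RPF (765 and 1810 RPM per kb), in TA as in heart.

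The enzymes that complete the cycle were all higher in heart. Hadha, the alpha subunit of the trifunctional protein, had 2526 RPM of RNA in heart and 424 RPM in TA, and 3917 and 575 RPM of RPF, so that its ratio was 5.96-fold in RNA and 6.81-fold in RPF. The ketothiolase Acaa2 had 1241 and 142 RPM of RNA and 1368 and 175 RPM of RPF, 8.73-fold and 7.80-fold. The hydroxyacyl-CoA dehydrogenase Hadh had 607 and 103 RPM of RNA and 964 and 188 RPM of RPF, 5.86-fold and 5.11-fold. The hydratase Echs1 had 453 and 109 RPM of RNA and 829 and 211 RPM of RPF, 4.15-fold and 3.93-fold. Among these 4 genes only Hadha had a wider ratio in RPF than in RNA.

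Unsaturated fatty acids need auxiliary enzymes. The dienoyl-CoA isomerase Ech1 had 2239 RPM of RNA in heart and 217 RPM in TA (10.3-fold, 9.93 to 10.7), the second widest RNA ratio, but 2033 and 336 RPM of RPF (6.04-fold, 5.91 to 6.18). The dienoyl-CoA reductase Decr1 had 622 and 109 RPM of RNA (5.70-fold) and 496 and 111 RPM of RPF (4.47-fold). The enoyl-CoA isomerase Eci1 had 285 and 68.3 RPM of RNA (4.18-fold) and 500.3 and 149.9 RPM of RPF (3.34-fold). These 3 genes thus had a smaller tissue ratio in RPF than in RNA. Eci2, its relative that also works in peroxisomes, had 224 and 62.1 RPM of RNA and 222 and 60.3 RPM of RPF, nearly the same ratio in both, 3.60-fold (3.34 to 3.89) and 3.67-fold (3.48 to 3.87).

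Electron transfer flavoprotein pairs an alpha subunit (Etfa) with a beta subunit (Etfb) and hands electrons to the dehydrogenase Etfdh. In heart the RNA of Etfa was 464 RPM per kb and that of Etfb 836, a ratio of 0.555 (0.533 to 0.577), while their RPF stood at 846 and 847 RPM per kb, a ratio of 0.999 (0.980 to 1.02). In TA the ratio was 0.587 in RNA and 0.694 (0.668 to 0.722) in RPF. Equal RPF of the subunits was thus a feature of heart coding reads alone, and over all 3 parts of the transcript the heart RPF ratio was 0.758. Etfdh had 1222 and 204 RPM of RNA and 691 and 131 RPM of RPF, and all 3 genes were between 4.28-fold and 6.00-fold higher in heart in RNA.

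Ucp3, a carrier of the inner mitochondrial membrane known from skeletal muscle and brown fat, was the member lower in heart. It had 52.9 RPM of RNA in heart and 69.3 RPM in TA, and 166 and 241 RPM of RPF. The ratios were 0.764 (0.685 to 0.850) in RNA and 0.690 (0.665 to 0.716) in RPF, short of 2-fold on the library scale. Its relative Ucp2, which is broadly expressed and abundant in immune cells, went the other way with 33.4 and 2.79 RPM of RNA. Per kb, Ucp3 exceeded Ucp2 by 1.59-fold in heart RNA and 24.9-fold in TA RNA, and by 4.29-fold and 39.5-fold in RPF. Over all 3 parts of the transcript these ratios were 3.45 and 51.0 in RNA and 2.64 and 26.8 in RPF.

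The thioesterase Acot13, which frees fatty acids from CoA at mitochondria, had 232 RPM of RNA in heart and 67.0 RPM in TA (3.46-fold), but 348 and 187 RPM of RPF (1.86-fold, 1.80 to 1.92). It was the only gene that passed 2-fold in RNA and not in RPF. The matrix thioesterase Acot2 had 132 RPM of RNA and 239 RPM of RPF in heart. Acot1, a close copy of Acot2 in the genome, is not analysed here, and the rule for reads that match both copies is unknown here, so the Acot2 values are uncertain.

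At the droplet, Plin5, the coat protein that holds droplets against mitochondria in oxidative tissues, had 160 RPM of RNA in heart and 19.4 RPM in TA (8.21-fold, 7.30 to 9.35), with RPF of 218 and 23.8 RPM (9.15-fold, 8.49 to 9.97). Hormone-sensitive lipase, Lipe, had 68.5 and 17.7 RPM of RNA (3.85-fold) and 55.4 and 15.2 RPM of RPF (3.63-fold). Both genes were higher in heart in RNA and RPF, with overlapping intervals of the paired ratios.

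The second comparison was translational efficiency, the RPF of a gene per unit of its RNA, on a log2 scale with the median gene of each tissue set to 0. In heart 11 of 30 members lay at least 2-fold above the median gene and none at least 2-fold below, beside 16.0% and 17.8% of all genes. In TA 10 of 29 lay at least 2-fold above and 1, Slc22a5, below, beside 15.4% and 18.7%. The median member stood at 0.57 in heart and 0.69 in TA. The 8 genes at least 2-fold above in both muscles were Lpl, Acadl, Acads, Hadh, Echs1, Eci1, Acot13 and Ucp3. The share of all genes above in both was not counted, so this overlap has no background. Over all genes the efficiencies in the 2 muscles also went together (Pearson's r = 0.88). The counts depended on the reference. Without centring 3 members in heart and 6 in TA had at least 2-fold more RPF than RNA, beside 7.98% and 10.2% of all genes. The heart count was then near the background. With the RNA of all 3 transcript parts as denominator, 16 members in each muscle lay at least 2-fold above the median gene. The background was then 17.7% of all genes in heart and 18.2% in TA.

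Acadl had the highest efficiency of all members, 2.41 (2.37 to 2.45) in heart and 2.29 (2.22 to 2.36) in TA, above 98.6% and 98.5% of all genes. Ucp3 followed at 2.09 and 2.06, and Lpl at 1.93 and 1.87. These 3 genes with steep efficiencies had opposite or unlike tissue ratios, while their efficiencies differed by 0.12 or less between the muscles. The lowest member was Slc22a5, at -0.50 in heart and -1.98 in TA. Next in heart came Acsl1 (-0.39, and -0.03 in TA) and Etfdh (-0.38, and -0.37 in TA), and next in TA Crat (-0.74) and Slc27a1 (-0.71).

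By role, all 11 dehydrogenases, cycle enzymes and auxiliary enzymes lay above the median gene in both muscles. Echs1 stood at 1.31 in heart and 1.21 in TA, Eci1 at 1.25 and 1.39, Acads at 1.15 and 1.45, Hadh at 1.11 and 1.12 and Hadha at 1.07 and 0.70. Acaa2 (0.58 and 0.56), Ech1 (0.30 and 0.89), Eci2 (0.43 and 0.22), Decr1 (0.11 and 0.28) and Acadvl (0.11 and 0.36) were nearer the median gene. Without centring, RPF was below RNA in heart for Acadvl (a ratio of 0.796), Decr1 (0.797), Ech1 (0.908) and Eci2 (0.990), and in TA for Eci2 (0.972). The subunits of the electron transfer flavoprotein were at 1.31 and 0.94 (Etfa) and 0.46 and 0.69 (Etfb), above Etfdh.

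The thioesterase and uncoupling genes all passed the 2-fold rule upwards where listed, with Acot2 at 1.30 in heart and Acot13 at 1.02 in heart and 1.74 in TA. The uptake genes were spread around the median, from Lpl and Fabp3 (0.75 and 0.74) to Cd36 (0.13 and 0.68), Fabp4 (-0.05 and 0.54) and Slc27a1 (-0.13 and -0.71). In the shuttle, Cpt2 (0.86 and 1.01) and Cpt1a (0.33 and 1.03) were above the median and Crat (-0.17 and -0.74) and Slc22a5 below, in both muscles. The droplet genes Plin5 (0.89 and 0.55) and Lipe (0.13 and 0.04) were above it in both, though the counting intervals of Lipe include 0.

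**Figure D3:**
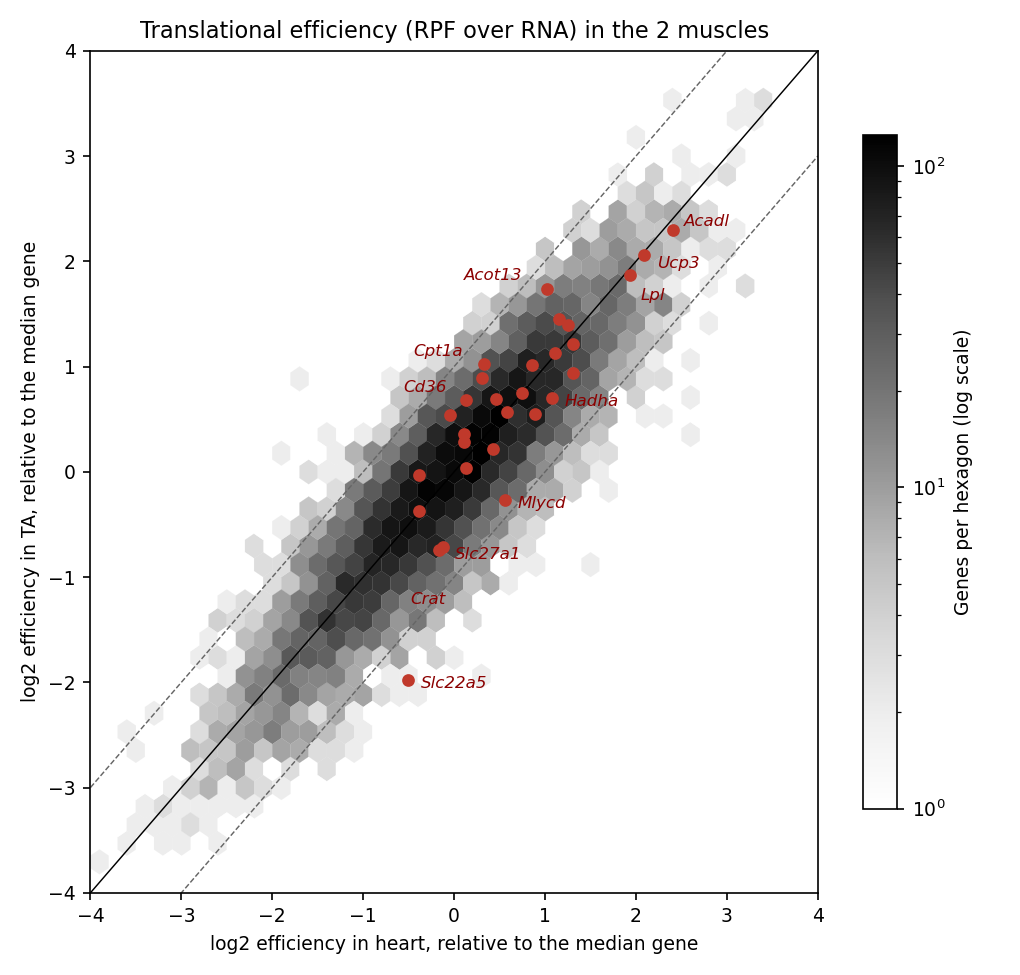
log2 translational efficiency in heart (x) and TA (y), each relative to the median gene, with all genes as grey hexagons (log colour scale) and the 29 members as red points; dashed lines mark a 2-fold difference and 26 genes lie outside the axes. Most members lie above 0 on both axes and close to the diagonal, and Slc22a5 alone lies outside the dashed lines.

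Efficiencies of the members in the 2 muscles went together, with Pearson's r = 0.85 and Spearman's rho = 0.87 over 29 genes, beside 0.88 and 0.87 over all 9635 genes with both values. Shorter coding sequences had higher efficiencies, with rho = -0.38 in heart and -0.43 in TA for members and -0.39 and -0.35 for all genes. These are descriptions across genes, which are not independent and share the 4 libraries.

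The third comparison was the difference in efficiency between the muscles. Of 29 members 1 was at least 2-fold higher in heart and none lower, beside 4.07% and 2.34% of all genes, a share near the background. The median difference was 0.01 for members and 0.01 for all genes, and the quartiles of all genes were -0.30 and 0.34. Of the members 20 differed by 0.5 or less, and 6 had counting intervals that include 0. These 2 counts were not made for all genes, so they have no background. The gene past 2-fold was Slc22a5, with a difference of 1.48 (1.07 to 1.88), which rests on its 88 coding reads in TA RPF. It was followed by Mlycd at 0.83 (0.68 to 0.99), Slc27a1 at 0.59 (0.42 to 0.75) and Crat at 0.58 (0.51 to 0.65). All 4 therefore had more RPF per RNA in heart. The carnitine shuttle was split, with Slc22a5 and Crat above 0 and Cpt2 (-0.15) and Cpt1a below.

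At the other end, efficiency was lower in heart for Acot13 (-0.72, -0.83 to -0.60), Cpt1a (-0.69, -0.97 to -0.42), Fabp4 (-0.59), Ech1 (-0.59), Cd36 (-0.55) and Acsl1 (-0.37). With the median gene at 0, 15 members were above 0 and 14 below. On the library scale 21 of 29 members (72.4%) had a smaller tissue ratio in RPF than in RNA, beside 64.1% of all genes. Most markers of other cell types also had lower efficiency in heart. Of all genes, 50.6% had a difference above 0 and 35.0% had at least 2-fold more RNA in heart. All 14 endothelial markers had at least 2-fold more RNA in heart, with a sum of 1831 RPM against 465 RPM in TA, and all 14 had lower efficiency in heart, at a median of -0.65 and a range of -0.99 to -0.11. Of 11 macrophage markers listed in both tissues all were at least 2-fold higher in heart, with sums of 412 and 82.4 RPM of RNA over these 11, and 10 had lower efficiency there, at a median of -0.92. Lpl, Cd36 and Fabp4 are known to be made by endothelial cells, macrophages or adipocytes as well as by muscle. The part of these cells in the members' values was not tested.

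Of 10 adipocyte markers, 8 were listed in TA and 3 in heart, and the 3 in both tissues, named here after their values were seen, were mixed. RNA was higher in heart for Pparg (16.1 and 2.36 RPM) and Thrsp (9.63 and 6.15 RPM) and lower for Car3, also a gene of muscle fibres (3.42 and 694 RPM). All 3 had lower efficiency in heart, at a median of -0.61. Adipoq, Plin1 and Cidec were not listed in heart, and Retn and Lep in neither tissue.

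**Figure D4:**
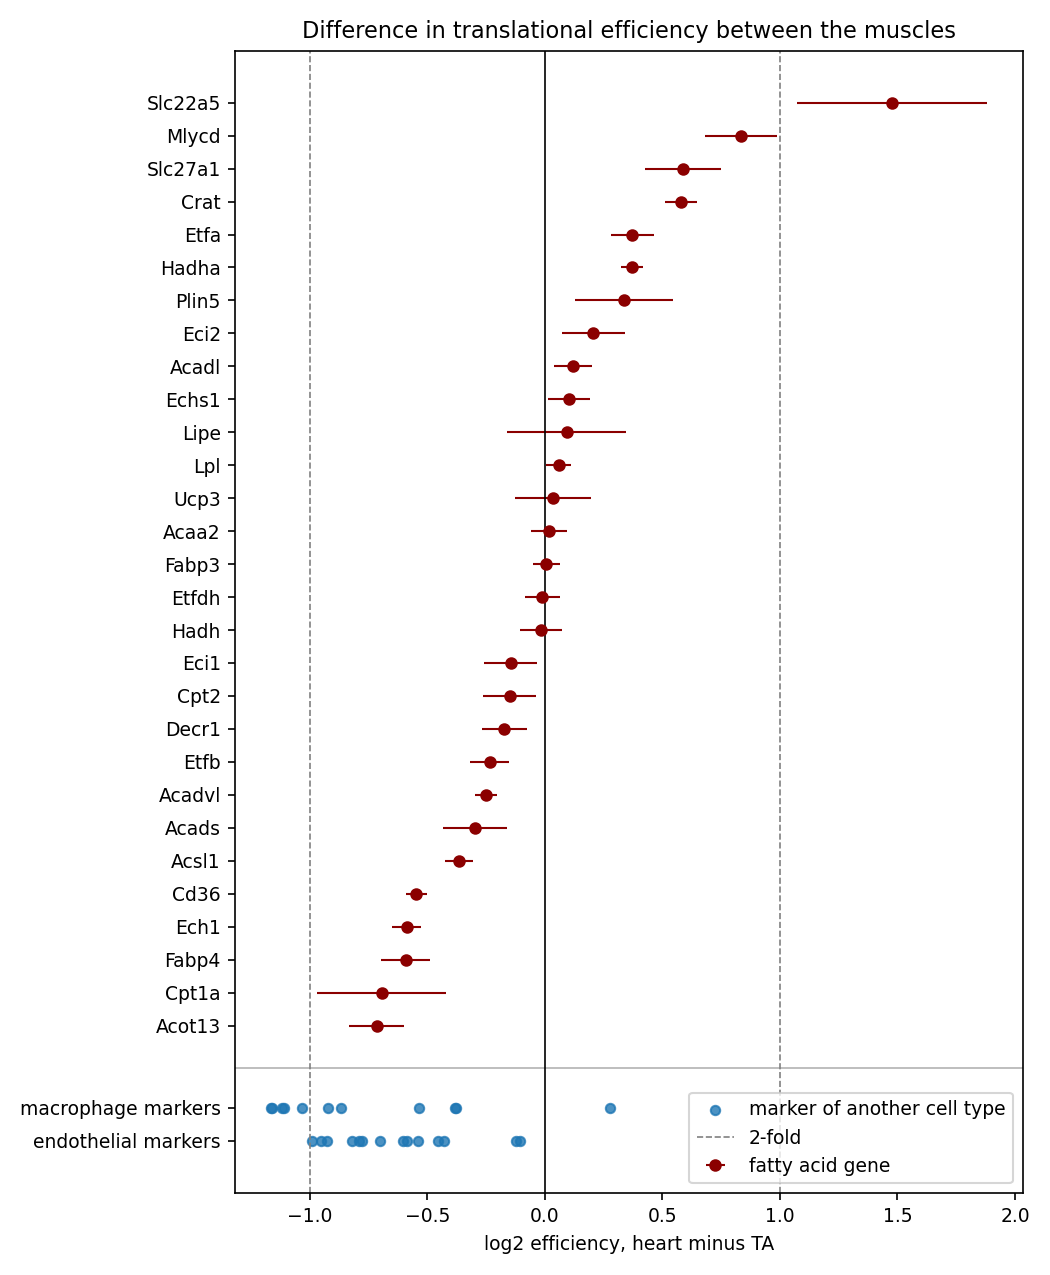
Difference in log2 translational efficiency, heart minus TA, for 29 members in order of size with 95% counting intervals (red), and for the endothelial and macrophage markers as single points (blue); dashed lines mark 2-fold. Slc22a5 is at 1.48 and Acot13 at -0.72, and the 14 endothelial markers all lie below 0.

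The fourth comparison was where on the transcript the reads lay. The 5-prime UTR held at least 5% of a gene's RPF for 4 of 29 members with such a UTR in heart (background 33.1% of genes) and for 3 of 28 in TA (27.3%). In RNA the counts were 5 of 29 and 5 of 28, beside 17.9% and 17.5%. The median member had 1.09% of its heart RPF there and 0.78% of its TA RPF, against 1.91% and 1.24% for all genes. In the deposited models the members' leaders were short, with a median of 105 nt against 155 nt for all genes, and 11 of 30 were under 50 nt beside 14.2% of all genes. In the GENCODE M21 transcripts paired by accession the members' median was 150 nt against 180 nt over 11030 genes, and 2 of 30 were under 50 nt beside 9.95%. The deposited leader was the shorter for 21 of the 30 members and for 4855 of the 11030 genes. Fabp3 had no 5-prime UTR in its model.

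In heart 6 members had no 5-prime UTR read of RPF. They were Fabp3, whose model has no leader, and Acadl, Hadha, Echs1, Etfb and Mlycd, each with a leader of 54 nt or shorter. For Hadha a count of 0 allows a share of up to 0.00271%, and its RNA had 146 reads there. This covers a leader of 32 nt, while the paired transcript has one of 214 nt. In TA 7 members had none, Fabp3 again among them. How many of all genes had none was not counted. The lower quartile of all genes with a leader was 0.139% of RPF in heart and 0% in TA. The counts of 6 and 7 are therefore not read as a trait of these genes.

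Cd36 was an abundant gene with many. Its leader of 487 nt held 762 RPM of RPF in heart, 23.9% of the gene's RPF (23.6 to 24.2), and 123 RPM or 18.1% in TA (17.5 to 18.6), while 9.23% and 9.21% of its RNA lay there. Per nt the heart RPF of the leader came to 0.911 of that of the coding sequence. Its share of RPF exceeded that of 91.2% of genes in heart and 90.9% in TA. Its paired GENCODE transcript has a leader of 275 nt, shorter than the deposited model, with 5 upstream ATG triplets of which 4 open frames that close before the coding sequence.

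Acot2 had the highest share. In heart 119.9 RPM of RPF, or 33.4% of its total (32.5 to 34.3), lay in a leader of 41 nt, 16.6 times its coding density, against 1.61 RPM or 0.847% of its RNA. Its paired transcript has a leader of the same length and no upstream ATG. The rule for reads that match Acot1 as well is unknown here, so the leader share of Acot2 is uncertain beyond its counting interval. Slc27a1 had 13.9% of its RPF in the leader in heart (12.7 to 15.1) and 8.02% in TA (6.33 to 9.99), against 3.50% and 4.16% of its RNA. Its leader of 205 nt holds 1 upstream ATG, in a frame that closes.

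Some leaders held a larger share of RPF in heart than in TA while the RNA share was alike. Crat had 8.70% (8.23 to 9.19) and 2.35% (1.97 to 2.77) of RPF, with 2.63% and 2.57% of RNA. Acadvl had 4.88% (4.68 to 5.08) and 1.11% (0.944 to 1.30), with 0.655% and 0.498% of RNA, and Acot13 had 4.53% and 1.01% of RPF with 14.0% and 15.0% of RNA. None of these 3 has an upstream ATG in its paired transcript. Of 28 members 17 had the larger RPF share in heart, or 60.7%, beside 54.2% of all genes. Slc22a5 had the reverse, 3.40% in heart (2.07 to 5.28) and 10.7% in TA (5.51 to 18.5), on 19 and 11 reads.

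In most members, however, the leader held no larger a share of RPF than of RNA: the RPF share was the larger in 11 of 29 in heart and 10 of 28 in TA. Fabp4, Eci2, Acot13 and Ucp3 are examples with at least 5% of their RNA there. For Fabp4 the shares in heart were 10.4% of RNA and 0.335% of RPF, and for Ucp3 10.7% and 2.58%. How many of all genes had the larger share in RPF was not counted, so the counts of 11 and 10 members have no background. The median of all genes was 1.91% of RPF and 1.11% of RNA in heart, and 1.24% and 1.06% in TA. Over all members 10 of 30 paired transcripts held an upstream ATG (33.3%), against 51.1% of 11030 genes, with the limit that 7 of the 30 had a leader of the same length in both annotations. The 3-prime UTR held little RPF, from 0% (Eci2) to 1.42% (Slc22a5) in heart, where RNA had between 0.650% (Etfb) and 51.2% (Lpl).

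**Figure D5:**
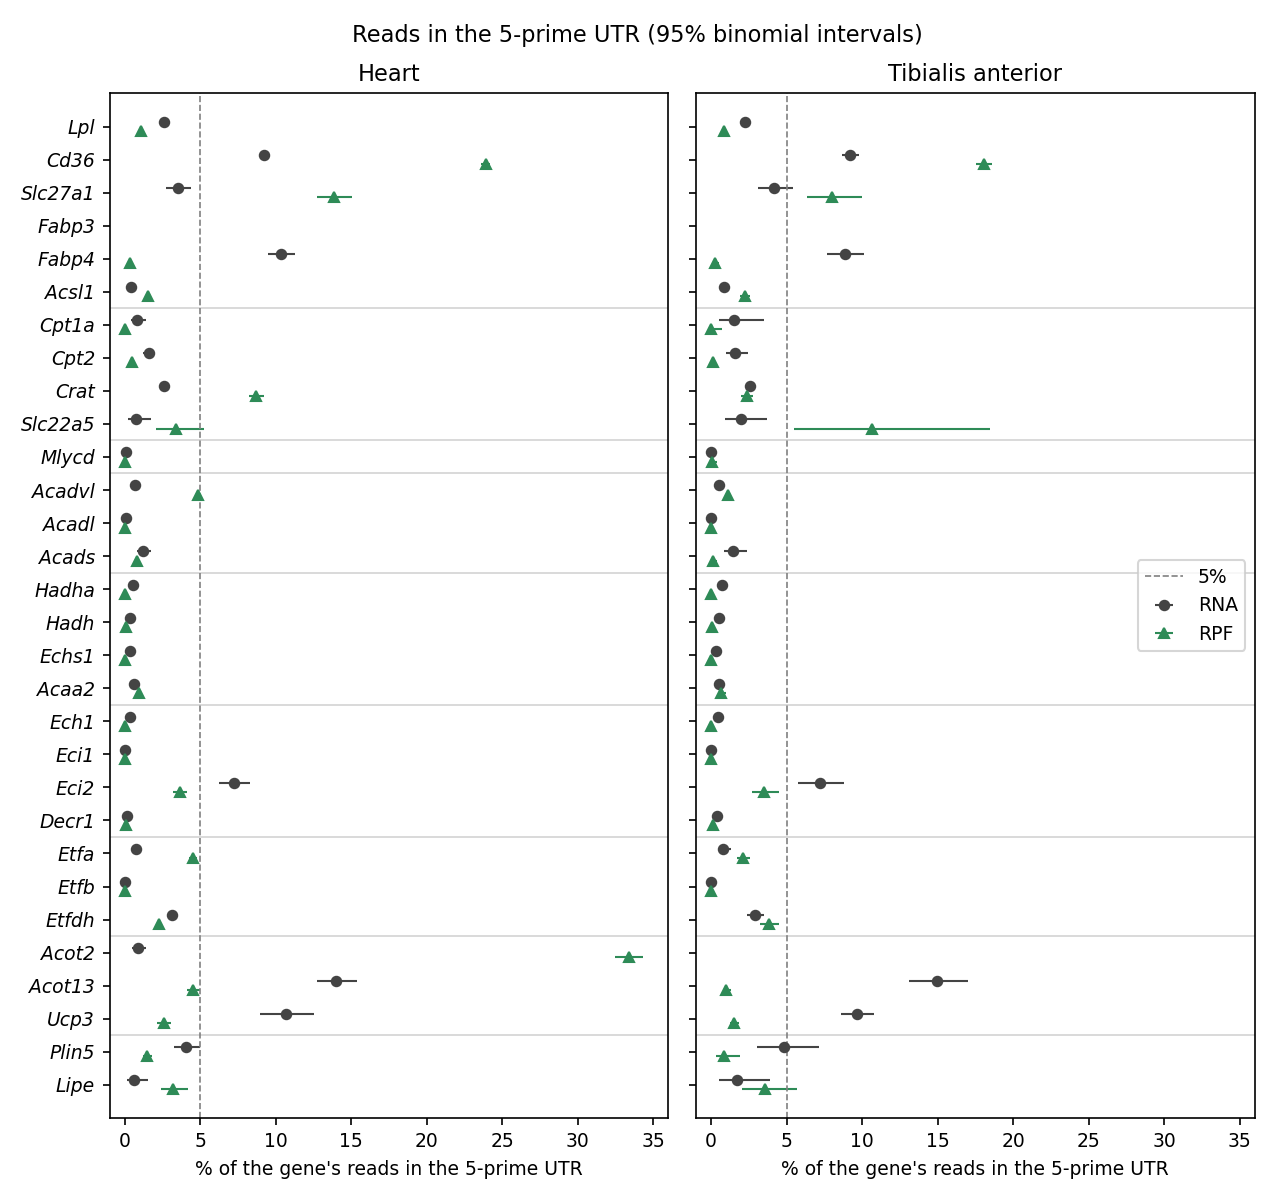
Share of each gene's reads in the 5-prime UTR, in % of its 5-prime UTR, coding and 3-prime UTR reads, for RNA (circles) and RPF (triangles) in heart (left) and TA (right), with exact 95% binomial intervals; the dashed line is 5%. Acot2 (33.4%) and Cd36 (23.9%) stand apart in heart RPF, and the other members with deposited leaders under 50 nt have RPF shares under 1%.

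Other genes of lipid use were set beside the members, with the same background of 35.0% higher and 3.88% lower in RNA. In RPF the background was 30.1% higher and 5.06% lower. Of other mitochondrial oxidation and activation genes, 15 of 23 had at least 2-fold more RNA in heart and 2 at least 2-fold less, at a median of 1.21, and in RPF the counts were 15 and 1. This list also holds Cd81, the gene of a cell surface protein without that role. Cd81 is in both counts of 15, at 4.34-fold in RNA and 3.26-fold in RPF. The highest ratio was that of Acss1, the mitochondrial acetyl-CoA synthetase, with 491 RPM of RNA in heart and 16.9 RPM in TA (28.9-fold). The 2 lower genes were the acyl-CoA synthetases Acsl3 (9.53 and 34.9 RPM) and Acsl6 (15.6 and 41.7 RPM).

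Of peroxisomal genes, 11 of 18 were at least 2-fold higher in heart in RNA and 1 lower, but 5 and 1 in RPF, the 5 being near the background. Of the 18, 2 are members too, Ech1 and Eci2. The lower gene was Abcd2, a peroxisomal importer of fatty acyl-CoA, with 11.1 RPM of RNA in heart and 87.1 RPM in TA. Of ketone body genes, 5 of 6 were at least 2-fold higher in RNA and 5 in RPF, with Oxct1, the first enzyme of ketone use, at 1419 and 390 RPM of RNA. Triglyceride synthesis and droplet genes had 9 of 15 higher in RNA and 7 in RPF, led by the acyltransferase Dgat2 with 345 and 25.1 RPM, while Lpin1 (290.5 and 397 RPM) was at a ratio of 0.731.

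Fatty acid synthesis and desaturation had 5 of 12 higher in RNA and 4 in RPF, a share near the background. Fasn was at 66.1 and 54.9 RPM of RNA. Of PPAR and ERR regulators 6 of 15 were at least 2-fold higher in RNA and 6 in RPF, again near the background, among them Ppara (65.5 and 14.7 RPM) and the coactivator gene Ppargc1b (68.6 and 15.7 RPM), whereas Rxra had 44.0 and 81.7 RPM. Of further known PPAR targets 5 of 8 were higher in RNA and 4 in RPF, but Pdk4, which restrains glucose oxidation, had 466 RPM of RNA in heart and 420 RPM in TA. The members' share of 26 of 29 was thus larger than that of any of these 7 lists in RNA, a description that was not tested.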

How the data were processed

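The labels describe heart and TA tissue of 10-week-old mice, lysed in cycloheximide, with 1 part of each lysate used for total RNA and the rest for RPF. The deposited values are RPM, per the file headers, for each of 3 parts of a transcript (coding sequence and both UTRs), whose lengths are given too. The submitters' processing notes name Bowtie and mm9, and the labels give RefSeq transcripts as the mapping target of RPF. The Bowtie version and the treatment of reads with several matches: not given in the sources used here.

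Members were found by symbol. Ratios were log2 with 0.1 RPM added to both values, where RNA averaged 1 RPM or more, and efficiencies were formed where the tissue's RNA reached 1 RPM. Fold values include this pseudocount, so those of scarce genes are understated. All genes were computed together, a call was a difference of at least 2-fold, and the 2 tissues' tables were scaled separately by the authors. Whole reads were recovered from the steps of the RPM values, and intervals are exact conditional binomial ones, or on the log scale for the efficiency difference. Reads are not unique molecules, so intervals and the limit of 3 reads behind a count of 0 cover counting error only. With 1 library per group no test could be fitted. The computation was tested on simulated data (Python 3.11.15, numpy 2.4.6, pandas 2.3.3, scipy 1.17.1, matplotlib 3.10.9).

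Members, the 7 related lists and 6 marker lists were chosen with earlier results of these data known. All members are described. Of each related list the text names genes from the 2 highest in RNA per kb and the 2 highest and 2 lowest RNA ratios at 10 or more RPM, and of the marker lists the most abundant and those not listed. Alternatives changed the pseudocount, minimum, scale, centring, denominator, length trend, choice of rows, UTR share and cut.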

Additional observations from a re-analysis of the deposited data

Results flagged for a closer look

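Mlycd, the malonyl-CoA decarboxylase gene, was the 1 member whose efficiency lay above the median gene in heart (0.56, interval 0.46 to 0.67) and below it in TA (-0.27, -0.38 to -0.16), with both counting intervals clear of 0. The difference was 0.83, heart minus TA. It rests on 1 library of each kind per tissue, and the difference between the tissues was not tested.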

How the results depend on the processing

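No paired analysis was possible because each group had 1 library, and for the same reason no replicate could be left out. All counts of members stayed within 1.5 times of the reported ones, with 3 exceptions. Without centring, the members with at least 2-fold more RPF than RNA numbered 3 in heart and 6 in TA (7.98% and 10.2% of all genes), as the median gene has less RPF than RNA. With the RNA of all 3 transcript parts as denominator, 16 members of TA were at least 2-fold above the median (18.2% of all genes). Centring on the median gene or leaving out the 50 most abundant genes lowered the counts higher in heart to 24 in RNA and 23 in RPF, and the background to 13.5% or 15.9% in RNA and 11.9% or 13.7% in RPF. Of 1169 values of single members under the alternatives, 821 moved by less than the reach of the counting interval, 348 moved further and none past 2-fold changed sign. Slc22a5 kept the only efficiency difference past 2-fold in all 8 alternatives, between 1.22 and 1.52. With reads of all 3 parts per kb, Etfa to Etfb was 0.758 in RPF and 0.423 in RNA of heart, and 0.514 and 0.460 in TA. Ucp3 to Ucp2 was 2.64 in RPF and 3.45 in RNA of heart, and 26.8 and 51.0 in TA. The cause of these shifts was not tested. Depth limits Slc22a5 most, with 88 coding reads of RPF in TA.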

Other observations

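Ucp2, the relative set beside Ucp3, had most of its ribosome-protected fragments before the start codon in both muscles. Its leader of 380 nt held 70.2 RPM in heart RPF, 63.9% of the gene's RPF (62.1 to 65.6), and 9.16 RPM or 59.1% in TA (54.4 to 63.8). The shares of RNA were 26.2% and 23.5%. Pdk4 had 7.57% of its RPF in the leader in heart (7.14 to 8.02) and 1.95% in TA (1.74 to 2.18), with 0.558% and 0.629% of its RNA. Abcd2 had 19.4% (14.6 to 24.8) and 5.38% (4.45 to 6.45) of its RPF there, on 48 and 111 reads. These genes were singled out after their values were seen.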
